A study of Mus musculus with 3 samples.

Results

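The genes described here are the 6 members of the mouse Ifit cluster, Ifit1, Ifit1bl1, Ifit1bl2, Ifit2, Ifit3 and Ifit3b, taken by symbol from the 55536 annotated genes in the expression tables. All 6 symbols were found. The samples were 3 libraries, biological replicates 1, 2 and 3 of 1 group, of total RNA depleted of ribosomal RNA from the cytosolic fraction of bone marrow-derived macrophages, which are phagocytes grown from marrow cells. The cells were of the C57BL/6J strain with no engineered allele named. They were exposed to Lipid A at 100 ng/ml over 12 h, washed, rested for 12 h with none, and re-exposed to 100 ng/ml over 50 min before harvest. Lipid A, the membrane anchor of bacterial lipopolysaccharide, is the ligand of the receptor Tlr4. No untreated, singly treated or nuclear samples were analysed here, so nothing below measures a response to Lipid A. The replicates share 1 donor entry that stands for the strain, and the age and sex of the animals were not collected.

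Ifit proteins (interferon-induced proteins with tetratricopeptide repeats) are made when type I interferon, itself released after Toll-like or RNA receptors fire, acts on its receptor and switches on antiviral transcription. Members of the family bind RNA and restrict viruses. Ifit1 binds RNA whose cap lacks the ribose methyl mark that host messenger RNA carries and keeps it from being translated. In macrophages the family is a standard readout of the interferon arm of Tlr4 signalling.

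The cluster lies on chromosome 19 (mm10, GENCODE M21 gene models) between 34550694 and 34650009, a span of 99.3 kb, with 4 genes on the plus strand and 2 on the minus strand. In map order, Ifit2 (ENSMUSG00000045932.12) ran from 34550694 to 34576419 on the plus strand. Ifit3 (ENSMUSG00000074896.3) ran from 34583531 to 34588731 on the plus strand. Ifit1bl1 (ENSMUSG00000079339.7) ran from 34592891 to 34601956 on the minus strand. Ifit3b (ENSMUSG00000062488.9) ran from 34607970 to 34613401 on the plus strand. Ifit1bl2 (ENSMUSG00000067297.5) ran from 34617049 to 34640743 on the minus strand. Ifit1 (ENSMUSG00000034459.8) ran from 34640871 to 34650009 on the plus strand. Ifit1bl2 and Ifit1 stand head to head with 127 bases between their starts, while the other neighbours lie 3.65 to 7.11 kb apart. The only other annotated gene overlapping a member was a processed pseudogene inside Ifit1bl2, AC016791.2, on the opposite strand with at most 4 counts in a library. The last exon carried 87.8 to 98.5% of each member's main transcript by length.

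**Figure D1:**
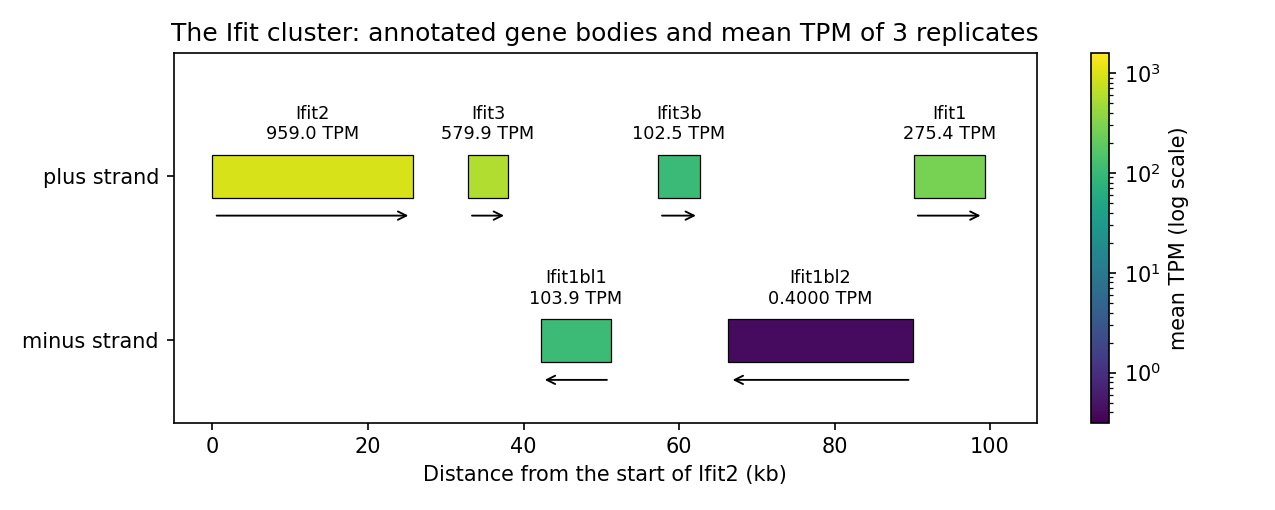
Map of the Ifit cluster on chromosome 19, drawn to scale as distance in kb from the start of Ifit2, with arrows for gene strand and, beside each gene, the mean over 3 replicates of its TPM, a share of transcripts after correction for length (printed and as colour on a log scale). The 2 minus-strand genes, Ifit1bl1 and Ifit1bl2, stand among 4 plus-strand genes, and the lowest member, Ifit1bl2, lies next to Ifit1.

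Ifit3 and Ifit3b are near copies, and a stretch of both is shown because it bears on how far their reads can be told apart. Over 1209 coding bases they differed at 11 positions (99.1% identity), 7 of them the third base of a codon, and their longest identical run was 329 bases. Coding bases 169 to 288, counted from the A of the start codon, were chosen as the 120-base stretch with the most differences. Other stretches of that length are thus no easier to tell apart. The stretch shown holds 4 of the 11 differences. These are in capitals.
Ifit3: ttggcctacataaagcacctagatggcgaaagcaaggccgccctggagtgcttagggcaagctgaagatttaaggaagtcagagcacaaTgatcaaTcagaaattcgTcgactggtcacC
Ifit3b: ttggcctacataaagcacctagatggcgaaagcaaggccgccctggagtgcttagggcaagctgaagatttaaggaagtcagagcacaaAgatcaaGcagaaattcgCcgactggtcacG
Of all 75-base stretches of the Ifit3 transcript, 41.1% were also in Ifit3b, and of those of Ifit3b 35.7% were in Ifit3. With 100-base stretches the shares were 31.7% and 27.4%. The other members were easier to separate. Ifit1 shared 5.19% of its 75-base stretches with Ifit1bl2, Ifit1bl2 shared 5.34% of its own with Ifit1 or Ifit1bl1, Ifit1bl1 shared 1.98%, and Ifit2 shared 0 of its 3744. Coding identity was 87.4% between Ifit1bl1 and Ifit1bl2, 73.4% between Ifit1 and Ifit1bl1, and 73.5% between Ifit1 and Ifit1bl2. Ifit2 matched the others at 53.7 to 55.7%. The near copies Ifit3 and Ifit3b gave 53.7 and 55.6% in these gapped alignments, so this range is not read as a difference between members.

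The stretches upstream of the start sites are shown because the members differed in their matches to the core of the interferon-stimulated response element, a site known from the promoters of interferon-induced genes. The motif searched was GAAA, any 2 bases, then GAAA, on either strand. Sequences are those of RefSeq for GRCm38.p6, the assembly that mm10 names, and all 6 members were matched there. They are written 5′ to 3′ on the gene's own strand, with matches to this motif and to TATAAA, the core of the TATA box, in capitals; on the other strand the motif reads TTTC, 2 bases, TTTC. The first, Ifit3, covers chr19:34583339-34583528 on the plus strand. Ifit3b covers chr19:34607767-34607956 on the plus strand, Ifit1bl1 covers chr19:34601969-34602158 on the minus strand, and the stretch between the Ifit1bl2 and Ifit1 starts is chr19:34640744-34640870, written on the strand of Ifit1.
Ifit3: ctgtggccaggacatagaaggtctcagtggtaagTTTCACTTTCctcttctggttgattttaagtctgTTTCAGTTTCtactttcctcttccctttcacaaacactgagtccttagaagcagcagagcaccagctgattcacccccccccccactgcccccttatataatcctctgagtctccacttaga
Ifit3b: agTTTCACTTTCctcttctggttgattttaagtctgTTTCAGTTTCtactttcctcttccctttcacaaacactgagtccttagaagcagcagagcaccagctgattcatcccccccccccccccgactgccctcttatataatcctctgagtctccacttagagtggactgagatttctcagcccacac
Ifit1bl1: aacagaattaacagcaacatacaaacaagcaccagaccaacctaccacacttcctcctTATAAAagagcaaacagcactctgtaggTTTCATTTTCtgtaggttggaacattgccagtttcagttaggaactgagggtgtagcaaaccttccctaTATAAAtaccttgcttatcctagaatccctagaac
Ifit1bl2 to Ifit1: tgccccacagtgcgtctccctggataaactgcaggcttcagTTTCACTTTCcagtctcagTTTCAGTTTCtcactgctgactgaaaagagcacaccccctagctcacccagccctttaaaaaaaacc
In the 250 bases before the start, Ifit3 held 2 matches to the response element core, at 156 to 147 and 122 to 113 bases before it. Ifit3b held the same 2 matches at 188 to 179 and 154 to 145, and the windows of the pair were 96.9% identical over 224 aligned positions. Ifit1 held 2, at 104 to 95 and 85 to 76. The same 2 sites, on the other strand, lie 70 to 61 and 51 to 42 bases before the start of Ifit1bl2. Ifit1bl1 held 1 match, at 104 to 95 bases before its upstream start, with TATAAA at 132 to 127 and 35 to 30. Its downstream start had 1 match at 23 to 14 and TATAAA at 51 to 46. Ifit2 held 0 in the windows of both of its RefSeq starts, 34550694 and 34551088. The second of these windows, 34550838 to 34551087, lies downstream of the annotated start of the main Ifit2 transcript, 34550710. The bases between the 2 windows were not searched. A second RefSeq start of Ifit1bl2, at 34629811, also held 0 and had 1 TATAAA. For scale, 2.98% of 32851 such windows across the genome held at least 1 response element core and 0.180% held at least 2, while 12.4% held TATAAA. No member window held GGGA, any base, then TTTCC, a form of the NF-kB site found in 0.356% of windows. No binding was measured.

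The libraries held 47972062, 54409436 and 53491957 expected counts in annotated genes, in replicate order. A count of 0 allows up to 3 counts, or 0.0625, 0.0551 and 0.0561 CPM (counts scaled to library size), by counting error alone. All 10 macrophage markers reached 1 TPM in each replicate, with a summed level of 5655 to 7386 TPM. Of 25 markers in 9 lists of other cell types, 1 did (the neutrophil gene S100a8, mean 3.80 TPM), and 3 had no counts in any library. The libraries differed in nuclear-retained RNA: Malat1 stood at 5966, 3089 and 1426 CPM and Neat1 at 636, 248 and 128 CPM in replicates 1, 2 and 3.

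Ifit2, Ifit3 and Ifit1 were among the most abundant messenger RNAs, Ifit1bl1 and Ifit3b were intermediate, and Ifit1bl2 was low. Ifit2 stood at 754, 712 and 1411 TPM in replicates 1, 2 and 3 (mean 959 ± 392, SD, n = 3). Only 25 protein-coding genes had a higher mean. Ifit3 had a TPM of 504, 460 and 776 (580 ± 171), with 59 coding genes above it, and Ifit1 had 246, 195 and 385 (275 ± 98.0), with 127 above it. These 3 encode the proteins for which the family is best known, Ifit1 as the sensor of caps without the ribose methyl mark. Each was lowest in replicate 2 and highest in replicate 3 on this scale.

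Ifit1bl1, an Ifit1-like gene, had a TPM of 54.4, 41.6 and 216 (mean 104 ± 97.0, SD, n = 3), its SD almost as large as its mean. Replicate 3 lay far above the other 2. Ifit3b had a TPM of 77.2, 73.2 and 157 (102.5 ± 47.4). By mean TPM, 504 coding genes lay above Ifit1bl1 and 515 above Ifit3b, but replicate 3 carried the first of these. In replicates 1, 2 and 3 Ifit1bl1 ranked 986, 974 and 256 among coding genes and Ifit3b 683, 550 and 377. Without replicate 3 the mean was 48.0 TPM for Ifit1bl1 and 75.2 for Ifit3b. Ifit1bl2 had a TPM of 0.38, 0.25 and 0.57 (0.400 ± 0.161) from 84.1, 80.2 and 126 expected counts, above the limit that a count of 0 allows in every library. Thus 5 of the 6 members reached 1 TPM in each of the replicates, against 17.2% of all annotated genes and 41.1% of protein-coding genes. In bulk RNA, fewer cells expressing a gene and less RNA per cell cannot be told apart.

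**Figure D2:**
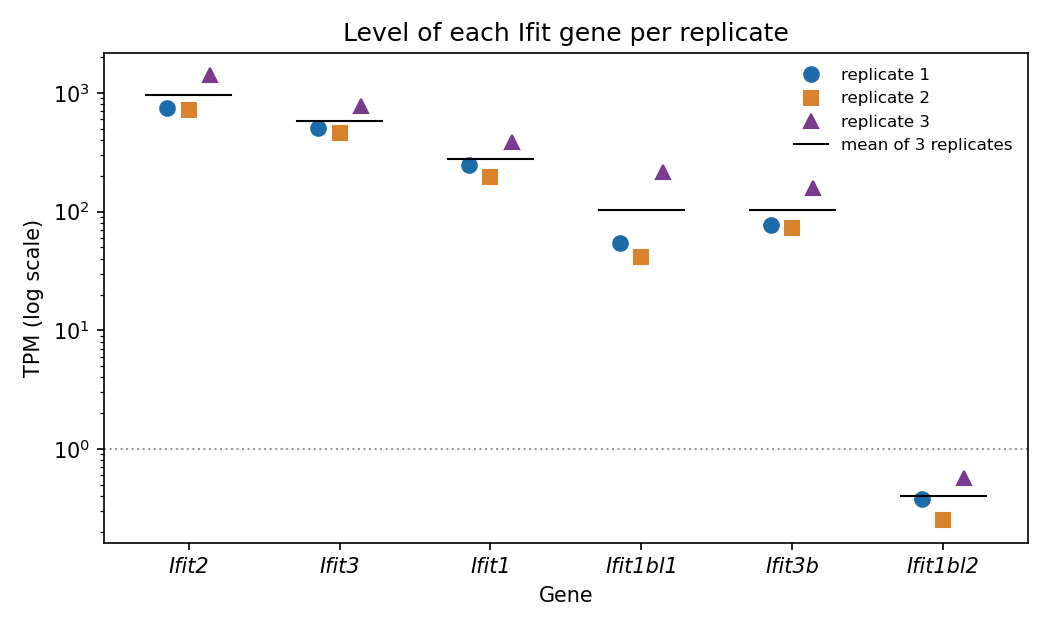
TPM (log scale) of each Ifit gene, with 1 point per replicate and a bar at the mean of 3. Ifit2 stands highest at 712 to 1411 TPM and Ifit1bl2 lowest at 0.25 to 0.57 TPM, and replicate 3 is the highest point of every gene.

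Together the 6 genes made up 1635, 1483 and 2945 TPM, or 0.491, 0.569 and 0.796% of the TPM of all protein-coding genes. Ifit2 alone was 47.3 ± 1.09% of the family (SD, n = 3), Ifit3 29.4 ± 2.64% and Ifit1 13.8 ± 1.12%. Ifit3b was 5.0 ± 0.312% and Ifit1bl2 0.0198 ± 0.00322%. The share of Ifit1bl1 was 3.32, 2.81 and 7.32%, so in replicate 3 it was above that of replicates 1 and 2 while the share of Ifit3 was lower, at 26.3% against 30.8 and 31.0%.

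The order of the members was compared within each library, as differences of log2(TPM + 1). Of the 15 pairs, 14 had the same sign in all 3 replicates. Ifit2 exceeded Ifit3 by 0.58, 0.63 and 0.86, a mean of 0.69 ± 0.15 (SD, n = 3). It exceeded Ifit1 by 1.78 ± 0.15, and Ifit3 exceeded Ifit1 by 1.09 ± 0.12. These 3 differences were each more than 4 times their spread. The ratio of Ifit2 to Ifit3b was 9.76, 9.73 and 8.98, and that of Ifit2 to Ifit1bl1 was 13.9, 17.1 and 6.54. The exception was Ifit1bl1 against Ifit3b, neighbours in the order that did not differ beyond their spread (mean difference -0.28). Ifit3b was higher in replicates 1 and 2, and Ifit1bl1 in replicate 3. An exact two-sided sign-flip permutation test gave p = 0.25 for each of the 14 pairs, the smallest that 3 replicates allow (0.268 after Benjamini-Hochberg adjustment over 15 pairs).

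For the near copies, Ifit3b was 13.3, 13.7 and 16.8% of the summed TPM of Ifit3 and Ifit3b (mean 14.6 ± 1.94%, SD, n = 3). The second transcript table gave the same shares, 13.3, 13.7 and 16.8%. By expected counts, which are not divided by length, the share was 15.2, 15.7 and 19.1%. Each expected count carries a posterior SD, the uncertainty left by reads that fit several genes. For both genes it was 34.2, 39.8 and 54.5 counts, the same to the printed digits. That was 0.350, 0.299 and 0.276% of the Ifit3b count, well under the difference between the replicates. For Ifit1 and Ifit1bl2 it was at most 0.83 counts, for Ifit1bl1 at most 0.08, and for Ifit2 it was 0. The posterior SD does not cover differences between the quantifications. In the second transcript table the Ifit1bl2 count was 1.37, 1.41 and 1.46 times that of the gene table in replicates 1, 2 and 3. The median over tested genes was 1.10, 1.09 and 1.10, and the other members lay between 1.01 and 1.10.

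Levels differed between the replicates, and replicate 3 was the highest for each member. CPM scaled by trimmed mean of M values (TMM), which takes its scale from the bulk of genes, was used for this comparison. Ifit2 stood at 3783, 4829 and 7022 CPM in replicates 1, 2 and 3, Ifit3 at 1072, 1325 and 1651, and Ifit1 at 837, 898 and 1301. These 3 were lowest in replicate 1 and highest in replicate 3. Ifit3b stood at 192, 246 and 390 CPM, in the same order. Ifit1bl1 stood at 150, 155 and 594 CPM, with replicates 1 and 2 close together and replicate 3 far above both. Ifit1bl2 stood at 1.65, 1.48 and 2.48 CPM, with replicate 2 the lowest. All 6 members were highest in replicate 3, as were 38.1% of 13827 tested genes (those with a mean count of at least 10), and 5 of 6 were lowest in replicate 1, as were 38.2% of tested genes. Earlier results of these data had already shown replicate 3 to be high in interferon-stimulated genes, so these counts are description only.

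The ratio of replicate 3 to replicate 1 was 3.95 for Ifit1bl1, 2.03 for Ifit3b, 1.86 for Ifit2, 1.55 for Ifit1, 1.54 for Ifit3 and 1.5 for Ifit1bl2. All 6 reached 1.5, as did 7.09% of tested genes. A ratio of 2 was reached by Ifit1bl1 and Ifit3b, and by 2.42% of tested genes, and a ratio of 3 by Ifit1bl1 alone and by 0.702%. Only 46 of 13827 genes (0.333%) had a larger ratio than Ifit1bl1. Against replicate 2, Ifit1bl1 was 3.82 times higher in replicate 3 and the other members 1.25 to 1.67 times, while between replicates 2 and 1 Ifit1bl1 differed by a ratio of 1.03. A larger ratio of replicate 3 to replicate 2 was seen in 0.535% of tested genes for Ifit1bl1, 5.88% for Ifit1bl2, 7.04% for Ifit3b, 9.81% for Ifit2, 9.96% for Ifit1 and 17.8% for Ifit3. Against replicate 1 the shares were 2.21% for Ifit3b, 3.28% for Ifit2, 6.11% for Ifit1, 6.28% for Ifit3 and 7.02% for Ifit1bl2, so they were smaller there for every member but Ifit1bl2. The median difference of replicate 3 from replicate 1 over the 6 members was 0.76 on the log2(CPM + 0.5) scale, beside 0.03 over all tested genes. Malat1 and Neat1 moved the opposite way, 5966 against 1426 CPM and 636 against 128 CPM in replicates 1 and 3, and their part in the result was not tested.

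**Figure D3:**
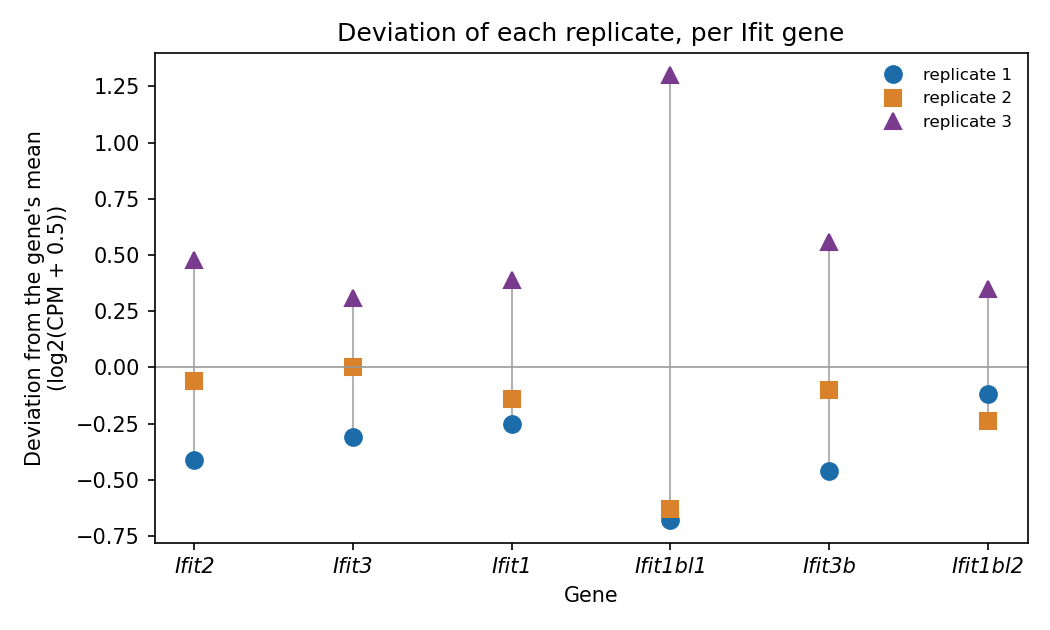
Difference of each replicate from the gene's own mean, in log2(CPM + 0.5), for the 6 Ifit genes, with 1 point per replicate. Replicate 3 is above 0 for every gene, and Ifit1bl1, at -0.68, -0.63 and 1.30, is the most spread.

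A Poisson heterogeneity chi-square with 2 degrees of freedom asked whether the replicates differed by more than counting error, with Benjamini-Hochberg adjustment over all tested genes. All 6 members passed at 0.05, but so did 70.4% of tested genes, and nothing is read from the count. For Ifit1bl2, the gene with the fewest counts, the adjusted p of the heterogeneity chi-square was 0.000605, and for the other 5 it was below the smallest value the software holds. With replicate 3 left out, 4 of 6 passed (50.7% of 14027 tested genes did): Ifit1bl1, at an adjusted p of 0.0621, and Ifit1bl2, at 0.587, did not. The size of the spread, edgeR's tagwise biological coefficient of variation, was 0.501 for Ifit1bl1 and 0.190 to 0.317 for the other members, against a median of 0.164 over tested genes. Ifit1bl1 lay above 92.6% of tested genes on this measure, and the other members above 57.6% (Ifit3) to 74.8% (Ifit1bl2). Without statements on separate animals in the labels, this spread is that between the 3 samples and may be technical.

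The second transcript table, a separate quantification of the same libraries, gave lower TPM for every member. The members kept the order they had in the gene table within each library, with Ifit3b above Ifit1bl1 in replicates 1 and 2 and below it in replicate 3. Its mean was 360 TPM for Ifit2, 220 for Ifit3, 101 for Ifit1, 37.6 for Ifit3b, 35.2 for Ifit1bl1 and 0.201 for Ifit1bl2. In TPM as that table gives it, replicate 3 was the highest for only 2 members, Ifit1bl1 (29.5, 14.9 and 61.2) and Ifit3b (42.1, 26.2 and 44.4). Ifit2 stood there at 416, 258 and 407, Ifit3 at 274, 165 and 221, and Ifit1 at 128, 67.5 and 107, each highest in replicate 1. Protein-coding genes held 19.6, 9.70 and 10.9% of TPM in that table and 33.3, 26.1 and 37.0% in the gene table. Rescaled to the protein-coding total, the second table had all 6 members highest in replicate 3, with Ifit2 at 2125, 2656 and 3739. Its estimated counts, scaled by TMM, did so too.

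Of 8 annotated transcripts of the members, 6 had a mean of at least 1 TPM in either transcript table. Ifit1bl1 was the only member with more than 1 of these. Its longer transcript, of 2200 bases, begins at the upstream start, 34601956, and held 87.4, 84.2 and 83.9% of the gene's TPM (mean 85.2 ± 1.92%, SD, n = 3), and the other, of 2193 bases, which begins at 34599327, held the rest, 14.8 ± 1.92%. The second table gave 88.2, 87.5 and 87.5% for the upstream transcript. The 2 transcripts share their last exon of 2133 bases, so this division rests on their short first exons alone. Both transcripts were highest in replicate 3, at 181 TPM for the upstream one against 47.5 and 35.1, and at 34.6 TPM for the downstream one against 6.86 and 6.58. A single transcript held 99.9% of the Ifit2 TPM, and Ifit1, Ifit3, Ifit3b and Ifit1bl2 have 1 transcript each in the annotation.

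Other interferon-stimulated antiviral genes gave a frame for these values. All 30 listed genes had at least 1 TPM in every replicate, with a median of 124 ± 42.2 TPM, beside 199 ± 88.9 for the 6 Ifit genes and 4.33 ± 0.719 for all tested genes. None of the 30 had a higher mean than Ifit2, while 4 exceeded Ifit3, 7 exceeded Ifit1, 18 exceeded Ifit1bl1 and Ifit3b each, and all 30 exceeded Ifit1bl2. Without replicate 3, a comparison added after seeing the data, 23 exceeded Ifit1bl1 and 20 Ifit3b. Ifitm3, which blocks virus entry, was the highest at 859, 705 and 1303 TPM (956 ± 310). Its mean was close to the 959 TPM of Ifit2, and in replicate 1 it stood above Ifit2, which had 754 TPM. Ifit2 was the higher of the pair in replicates 2 and 3, at 712 and 1411 TPM. Rsad2, which makes a chain-terminating nucleotide, had 672, 519 and 1429 TPM, and Isg15, a ubiquitin-like modifier, 525, 482 and 1079. In replicate 3 Rsad2 also stood above Ifit2. Oas2, an oligoadenylate synthetase, was the lowest, at 18.1, 13.4 and 25.7 TPM. All 30 were highest in replicate 3 in CPM (38.1% of tested genes were), a pattern known from earlier results, and all 30 passed the heterogeneity test (70.4%). Their median difference of replicate 3 from replicate 1 was 0.58 (log2), beside 0.76 for the Ifit genes. None of the 30 had a larger ratio of replicate 3 to replicate 1 than Ifit1bl1; the nearest was Cmpk2 at 2.81, a gene named after its value was seen. By that ratio 3 of the 30 exceeded Ifit3b, 7 Ifit2, 12 Ifit1, 12 Ifit3 and 15 Ifit1bl2.

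**Figure D4:**
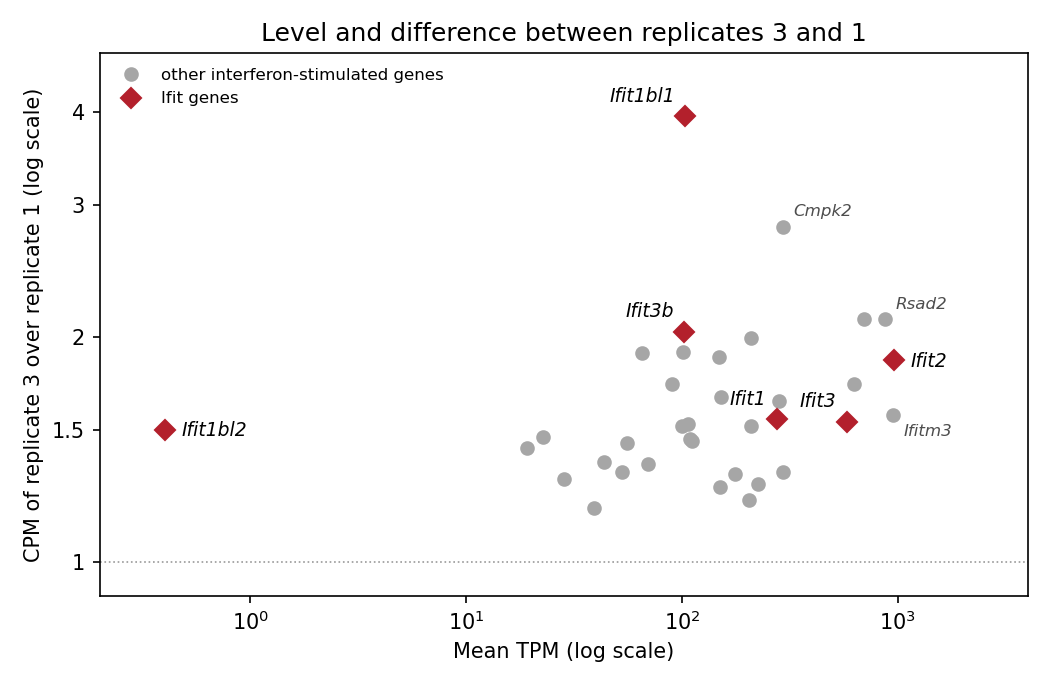
Mean TPM over 3 replicates (log scale) against the CPM ratio of replicate 3 to replicate 1 (log scale) for the 6 Ifit genes (diamonds) and 30 other interferon-stimulated genes (circles). Ifit1bl1 stands highest on the ratio axis at 3.95 and Ifit2 farthest right at 959 TPM, and every point lies above a ratio of 1.

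Of 19 genes for interferon induction and signalling, 18 had at least 1 TPM in every replicate. Ifnb1, the gene for interferon beta, stood at 3.34, 1.05 and 9.91 TPM, with replicate 2 lowest and replicate 3 highest. Ifna4, an interferon alpha gene, was listed at 0, 0 and 0.04 TPM. Irf7, the factor that amplifies interferon production, had 576, 565 and 1045 TPM, and Stat2, a signal transducer of the interferon receptor, had 114, 99.9 and 194. Irf1 had 245, 158 and 367 TPM. Irf9, a DNA-binding factor that partners Stat2, had 27.4, 20.3 and 30.7 TPM, and its ratio of replicate 3 to replicate 1 was 1.12 in CPM. Irf3, which acts ahead of interferon, had 14.3, 9.99 and 11.6 TPM and did not pass the heterogeneity test (adjusted p = 0.774). In all, 17 of 18 tested genes of the list passed it (70.4% of tested genes), 14 of 18 were highest in replicate 3 (38.1% of tested genes), and the median difference of replicate 3 from replicate 1 was 0.34, beside 0.03 over tested genes.

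The cap enzymes and translation initiation factors, part of the machinery that Ifit proteins meet, had a median coefficient of variation of 0.128, beside 0.244 for the Ifit genes and 0.164 for tested genes. Of 12 listed genes, 11 had at least 1 TPM in every replicate, 10 passed the heterogeneity test (70.4% of tested genes), and 5 were highest in replicate 3 (38.1%). Their median difference of replicate 3 from replicate 1 was -0.01. Cmtr1, which adds the methyl mark to the cap-proximal ribose, had 30.3, 21.4 and 50.1 TPM. In CPM it stood at 122.3, 141.5 and 167.4, so replicate 2 was the lowest in TPM only. Cmtr2, which marks the next ribose, was the lowest of the list at 0.95, 0.81 and 1.12 TPM. The most abundant were Eif4a1, a helicase (195 ± 41.0 TPM, SD, n = 3), and the initiation factor subunits Eif3c (53.2 ± 15.4) and Eif3a (51.2 ± 9.72).

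Within 200 kb of the cluster the annotation holds 14 other genes, 4 of them protein-coding, and 1 of the 14 had at least 1 TPM in every replicate. That gene, Lipa, for lysosomal acid lipase, had 222, 125 and 199.9 TPM, and its CPM ratio of replicate 3 to replicate 1 was 0.892, against 1.5 to 3.95 for the Ifit genes. Ch25h, which makes an antiviral oxysterol, had 0.47, 0.16 and 1.64 TPM from 39, 19 and 136 counts, a ratio of 3.51. Pank1, a pantothenate kinase, had 1.32, 0.96 and 0.97 TPM, and Slc16a12 was listed at 0 TPM in every library. In CPM, Lipa was highest in replicate 1, Pank1 in replicate 2 and Ch25h in replicate 3.

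The genes with a pattern nearest to the Ifit genes were sought over these 3 libraries by Euclidean distance between deviations in log2(CPM + 0.5), against the mean of the 5 members of at least 1 TPM (-0.42, -0.19 and 0.61). Among 11250 genes of at least 1 CPM on average, the nearest were Gm49392 at a distance of 0.0221, the antisense gene Gm44709 at 0.0277, Igsf9 at 0.0370, Tom1l2 at 0.0378 and Calhm6 at 0.0401. With 3 points a profile is easily matched, and 87 genes lay within 0.2. Of the members themselves, Ifit3b lay at 0.105, Ifit2 at 0.182, Ifit1 at 0.284, Ifit3 at 0.365, Ifit1bl2 at 0.399 and Ifit1bl1 at 0.860, so Ifit1bl1 was the member least like the family's mean. That mean includes Ifit1bl1, and 23, 74, 191 and 371 other genes lay nearer to it than Ifit3b, Ifit2, Ifit1 and Ifit3. The genes named above thus match an average rather than the profile of any single member.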

How the data were processed

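Cytosolic RNA of 3 replicates of 1 group was analysed from the tables the authors deposited. The expected count per gene or transcript is an estimate that need not be whole, deposited by the authors without normalisation, and TPM was deposited by the authors over every indexed feature, short RNAs included. The deposited notes give assembly mm10 and annotation M21. Quantifier, aligner, versions and strandedness were not given in the sources used here, so reads of a gene and of an antisense partner cannot be told apart.

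Genes were the 55536 annotated among 81881 entries; the others (tRNA entries, spike-ins and phiX) were left out of library sizes and tests. Counts were rounded for the heterogeneity test (mean count of at least 10, threshold 0.05) and scaled by TMM (edgeR 4.0.16, R 4.3.3). Deviations used log2(CPM + 0.5) and member pairs log2(TPM + 1). With 1 group, no differential test was possible. DESeq2 1.42.0 size factors, other filters, scalings and tables, and leaving out each replicate were tried. On simulated data for the heterogeneity comparison, with 13827 genes, the test found 27 of 50 genes that were changed 1.2-fold in 1 library, 35 at 1.5-fold, 47 at 2-fold and 49 at 4-fold, and 10 unchanged genes were called. Apart from these changes the simulated counts varied by counting error alone, so the figures do not carry over to libraries with a wider spread. Coding sequences were aligned with Biopython 1.88 and came from the M21 transcripts.

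The members and gene lists were chosen with earlier results of these data known, among them that replicate 3 was high in interferon-stimulated genes. Named are all members; their transcripts of at least 1 TPM on average; the 3 highest genes of each list, the lowest and 10 pathway genes; protein-coding neighbours within 200 kb; and the 5 genes nearest in pattern. The values of 1 gene that this rule names are not reported here.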

Additional observations from a re-analysis of the deposited data

How the results depend on the processing

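The order of the replicates depended on the scale. Replicate 3 was the highest for 6 of 6 members in CPM, with DESeq2 size factors, in gene-table TPM as deposited or rescaled to protein-coding genes, and in the second transcript table's counts. In the TPM of that second table as deposited, an alternative chosen after seeing the data, it was the highest for 2, the median difference of replicate 3 from replicate 1 was -0.06 in place of 0.76, and the Ifit1bl1 ratio was 2.08 in place of 3.95. After rescaling that table to protein-coding genes these were 6, 0.70 and 3.73. Mean TPM in the second table was 101 for Ifit1, 0.201 for Ifit1bl2, 360 for Ifit2, 220 for Ifit3 and 37.6 for Ifit3b. Rescaled to protein-coding genes, the gene table gave 843 for Ifit1, 302 for Ifit1bl1, 1.21 for Ifit1bl2, 2936 for Ifit2, 1792 for Ifit3 and 312.5 for Ifit3b. By expected counts Ifit3b was 16.6% of the Ifit3 and Ifit3b sum. Without replicate 3, mean TPM of Ifit1bl1 was 48.0 in place of 104, all 15 pairs had 1 sign, and 4 members passed the heterogeneity test. With a mean count of at least 100, 5 members were tested and passed. Since 70.4% of tested genes passed in the main setting, nothing is read from these counts. The mean differences between members kept their sign in all 90 alternatives to the 14 ordered pairs and the 1 unordered pair. For the 14 ordered pairs, leaving out a replicate or changing the pseudocount could not change the sign. Only the second transcript table and counts per annotated exonic length could have done so. Of the 90, 12, all involving Ifit1bl2, moved by more than the spread between replicates, which leaving out a replicate cannot cause. No paired comparison of groups was possible because there was only 1 group. Leaving out 1 replicate at a time leaves 2, so those values rest on few samples. Depth limits Ifit1bl2 alone among the members.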
